A study of Mus musculus with 6 samples.

Results

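TRIM (tripartite motif) proteins are a family of ubiquitin ligases, and 63 of their genes were measured here in mouse macrophage-like cells exposed to a plant polysaccharide. The genes were taken by name, as every gene that the array calls Trim followed by a number. They were covered by 91 of the 55681 non-control probes.

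The cells were RAW264.7, an established mouse macrophage line obtained from ATCC and grown in DMEM with serum and antibiotics. The AEPS group of 3 samples received AEPS, the polysaccharide from roots of Actinidia eriantha, at 50 µg/ml for 4 h. The control group of 3 samples stayed in DMEM for 4 h. RNA was labelled with Cy3 and read on 1-colour Agilent arrays. The deposited scanner values of replicates 1 and 2 were identical in both groups at all 62976 spots, so each such pair counted as 1 sample. This left 2 distinct arrays per group, on 2 slides that each held 1 control and 1 AEPS array. Separate cultures are not stated, so every p-value below refers to the spread between these arrays, which may be technical. Between 55.4% and 58.7% of the 59305 non-control spots of an array were well above background. Of 10 macrophage markers, 9 were above background on every array, and Mertk on none. None of 4 epithelial and 4 fibroblast markers was above background on every array, while Cd3e, Cd4, Cd79a, Pecam1 and Kdr, listed for other cell types, were. Between the groups Fcgr1 fell by 1.49 (limma adjusted p = 0.0344) and Ptprc rose by 0.93 (adjusted p = 0.048). The fibroblast marker Col3a1 was above background on both control arrays and on no AEPS array. Its observed signal was 2.76-fold lower with AEPS (adjusted p = 0.0539), but it was tested for being bright in control, which bears on its direction. In the authors' deposited table Col3a1 did not pass, and in replicate 3 of that table it was higher with AEPS. The T cell marker Cd8a changed by -1.86 (adjusted p = 0.119). The part of these in the results was not tested.

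A typical TRIM protein carries a RING finger that recruits a ubiquitin-charged conjugating enzyme, then B-box zinc fingers and a coiled coil through which it dimerises, and a C-terminal domain that binds the target. In macrophages several members attach ubiquitin chains to sensors of viral RNA and DNA and to their signalling partners, while others restrict viruses directly. Some family genes are induced by interferon, whose transcription factors bind the interferon-stimulated response element (ISRE) in promoters. Mouse chromosome 7 carries a rodent-expanded cluster of such genes that includes Trim30a and its paralogs.

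Promoter windows of RefSeq, assembly GRCm38.p6, running from 250 bases before to 50 bases after an annotated start, were searched for 47 of the 63 genes. The search covered both strands and looked for the ISRE core, GAAA and GAAA parted by any 2 bases, which reads as TTTC and TTTC so parted on the other strand. The core was present in 7 of the 47 genes (Trim2, Trim12a, Trim21, Trim26, Trim30a, Trim30d and Trim34a), against 3.99% of 27025 genes in the table and 3.44% of its 32851 windows. The stretches below are shown because 3 of the 5 TRIM genes that rose carry the core. Capitals mark the match or overlapping matches, and each is written 5′ to 3′ on the strand of its gene.
Trim21: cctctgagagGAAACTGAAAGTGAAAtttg
Trim30a: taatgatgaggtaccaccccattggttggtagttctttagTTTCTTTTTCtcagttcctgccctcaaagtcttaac
Trim30d: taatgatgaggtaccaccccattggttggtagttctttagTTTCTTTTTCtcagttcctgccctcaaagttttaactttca
Trim34a: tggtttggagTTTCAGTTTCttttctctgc
Trim12a: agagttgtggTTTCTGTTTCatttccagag
Trim26: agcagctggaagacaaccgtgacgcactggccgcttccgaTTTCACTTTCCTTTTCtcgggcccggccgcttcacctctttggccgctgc
The Trim21 stretch lies at chr7:102565450-102565479 on the minus strand and holds 2 overlapping matches, the first starting at base 14 of the transcript. The Trim30a stretch, chr7:104465194-104465269 on the minus strand, and the Trim30d stretch, chr7:104507850-104507930 on the minus strand, share their first bases and the same match, which ends 26 and 31 bases before the respective start. The Trim34a match, in chr7:104244457-104244486 on the plus strand, and the Trim12a match, in chr7:104315466-104315495 on the minus strand, both begin at base 11 of the transcript. Trim26, at chr17:36836946-36837035 on the plus strand, holds overlapping matches, of which the first ends 150 bases before the start. A match in these letters is not evidence of binding.

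Signals are given below as log2 of the processed signal minus the 75th percentile of the same array, so that 0 is that percentile, and a change is AEPS minus control on this scale. These levels compare arrays for 1 probe and do not rank one gene against another. A gene was tested if a probe was well above background on both arrays of control, of AEPS or of both, and was then represented by its brightest such probe. This held for 39 TRIM genes, of which 36 were above background on all 4 arrays. Of the other 24 genes, 16 were above background on no array, among them Trim10, Trim31, Trim54, Trim55, Trim63 and Trim72. Trim54, Trim55 and Trim63 encode ligases known from muscle. The remaining 8, Trim2, Trim40, Trim42, Trim52, Trim60, Trim61, Trim69 and Trim75, reached it on some arrays without filling a group. Trim52 read -0.18 on the control array of slide 1 and -7.05 to -6.48 on the other arrays, where it was not well above background. No TRIM probe was saturated.

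With limma and Benjamini-Hochberg adjustment over all 25925 features tested, 5 TRIM genes rose with AEPS and 1 fell at an adjusted p of 0.05. Over all features 4.17% rose and 2.94% fell. Trim36, Trim21, Trim13, Trim30a and Trim30d rose by 1.33 to 1.61 on the log2 scale, and Trim47 fell by 1.66. The other 33 tested genes did not pass, and 17 of these lay within 0.3 of 0. The median change of the 39 genes was -0.09, against -0.19 over all features, with 18 positive and 21 negative values. In bulk RNA, a change in the number of cells expressing a gene and a change per cell cannot be told apart.

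**Figure D1:**
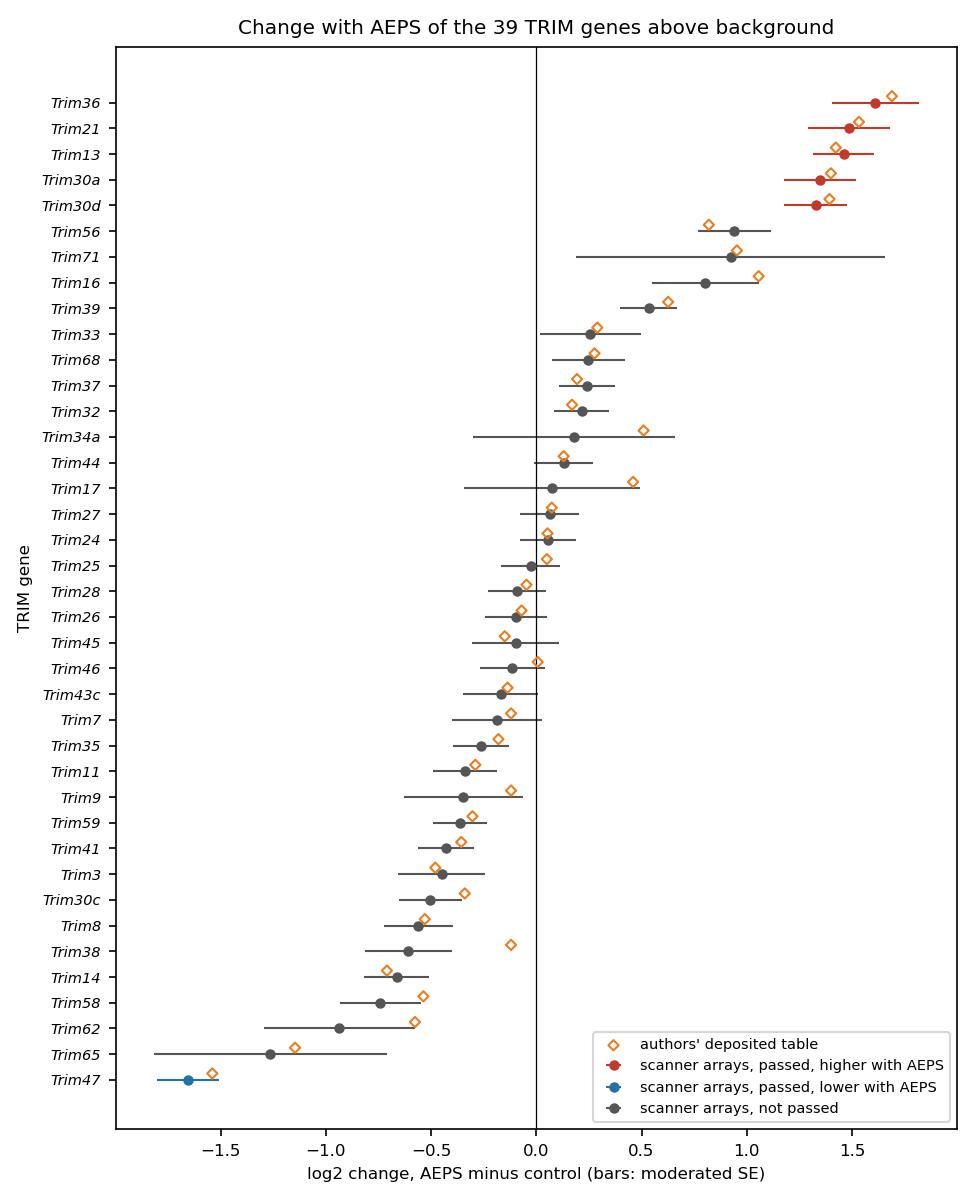
The log2 change, AEPS minus control, of each of the 39 tested TRIM genes on the scanner arrays (circles, with the moderated SE from limma, 2 arrays per group) and in the authors' deposited table (open diamonds, 3 columns per group). The 5 red genes lie between 1.33 and 1.61 and blue Trim47 at -1.66, while the grey genes, which did not pass, run from -1.26 to 0.94.

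Trim21, the cytosolic receptor for antibody-coated particles and itself a known interferon target, read -1.82 and -1.47 in control and -0.28 and -0.04 with AEPS. Both AEPS arrays lay above both controls, by 1.54 on slide 1 and 1.43 on slide 2. The fitted rise was 1.49 ± 0.20 (SE, n = 2 arrays per group; adjusted p = 0.038), or 2.80-fold.

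Trim30a, which in mouse macrophages is known to restrain Toll-like receptor signalling by promoting loss of TAB2 and TAB3, read -2.57 and -2.49 in control and -1.34 and -1.02 with AEPS. Its paralog Trim30d, known as an antiviral protein against flaviviruses, read -2.86 and -2.76 in control and -1.58 and -1.38 with AEPS. The groups of both genes were fully separated. Trim30a rose by 1.35 ± 0.17 (SE; adjusted p = 0.037) and Trim30d by 1.33 ± 0.15 (SE; adjusted p = 0.0314). Their printed promoter stretches are nearly the same letters. Their changes differed by less than their standard errors, and a link between the stretches and the changes was not tested.

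Trim13, a ligase anchored in the endoplasmic reticulum membrane, read -0.92 and -0.79 in control and 0.53 and 0.68 with AEPS. It rose by 1.46 ± 0.15 (SE; adjusted p = 0.0272), or 2.75-fold, with the same change of 1.46 on each slide. Its second probe, whose start lies 63 bases away, rose by 1.39 ± 0.15 (SE; adjusted p = 0.026 with every probe as its own unit). Among the probes taken by the naming rule, Trim13 was the only gene whose 2 probes both passed. Its promoter window held no ISRE core.

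Trim36, which encodes a microtubule-binding ligase known from the sperm acrosome reaction, read -2.45 and -2.23 in control and -0.93 and -0.53 with AEPS. It rose by 1.61 ± 0.21 (SE; adjusted p = 0.0369), or 3.06-fold, by 1.52 on slide 1 and 1.70 on slide 2. It was measured by a single tested probe, and its promoter window was not searched.

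Trim47, a SPRY-domain ligase, read -0.45 and -0.35 in control and -2.14 and -1.97 with AEPS. Its level with AEPS was 0.317 times that of control, a change of -1.66 ± 0.15 (SE; adjusted p = 0.0241). It fell on both slides, by 1.69 and 1.62. It was the single TRIM gene to pass in that direction.

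**Figure D2:**
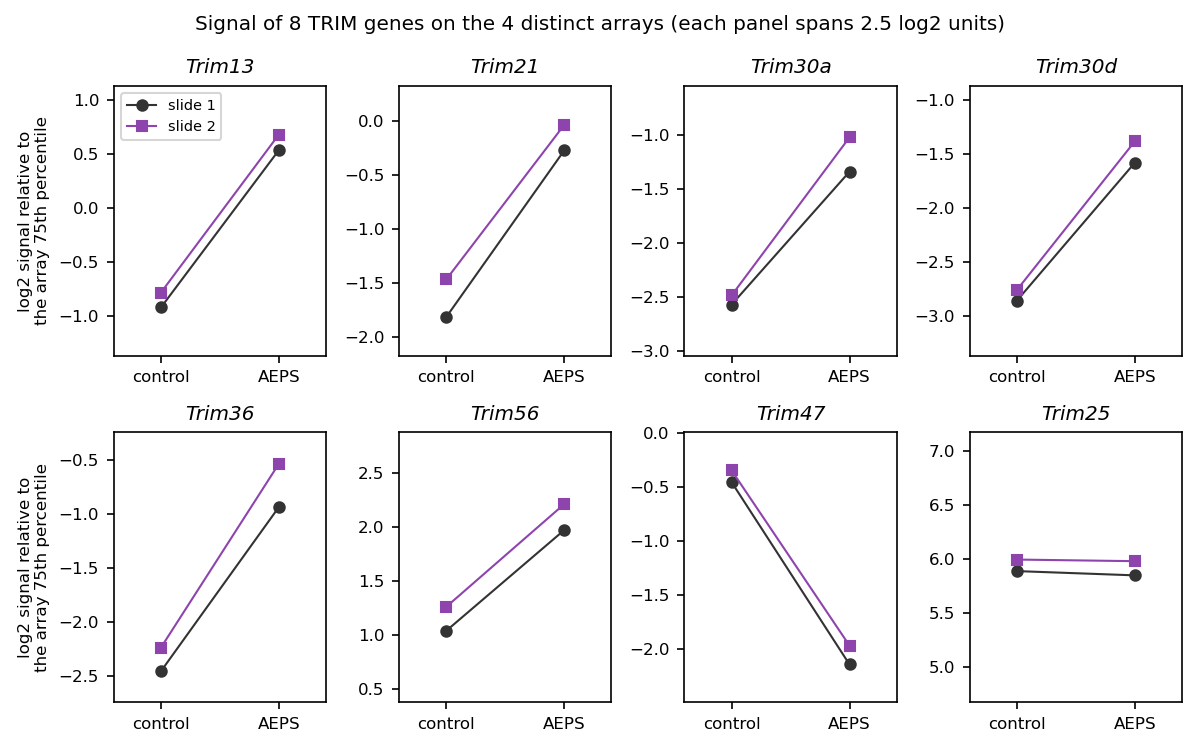
The log2 signal relative to the array 75th percentile of 8 TRIM genes on the 2 control and 2 AEPS arrays, with lines joining the arrays of 1 slide. Each panel spans the same range of 2.5 log2 units. The lines rise for Trim13, Trim21, Trim30a, Trim30d, Trim36 and Trim56, fall for Trim47 and run nearly level for the Trim25 probe drawn. The other Trim25 probe, not drawn, changed by 0.56.

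These 6 calls rest on few arrays. Leaving out 1 array left 1 array in its group, and most of the 6 calls were then lost. Most calls over all features were lost as well, so these fits do not single out the TRIM genes. The 6 genes kept their direction in each of them.

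The authors' deposited table holds 3 columns per group, of which the last matched none of the scanner files used here, and it gave the same direction for all 6 genes in each of its 3 replicate pairs. In that table Trim21 read 6.53, 7.09 and 6.97 in control and 8.25, 8.53 and 8.41 with AEPS, a change of 1.53 ± 0.17 (limma SE; adjusted p = 0.0023). Trim13 rose by 1.42 ± 0.11 (adjusted p = 0.000868) and Trim30d by 1.39 ± 0.17 (adjusted p = 0.00313) in the authors' deposited table. Trim30a rose there by 1.40 ± 0.21 (adjusted p = 0.00583) and Trim36 by 1.69 ± 0.26 (adjusted p = 0.0062). Trim47 read 8.04, 8.22 and 8.26 in control and 6.26, 6.77 and 6.87 with AEPS in the table, a change of -1.54 ± 0.18 (adjusted p = 0.00272). These last columns alone gave 1.44 for Trim21, 1.30 for Trim13, 1.19 for Trim30a, 1.18 for Trim30d, 1.57 for Trim36 and -1.39 for Trim47. With quantile normalization of the scanner arrays, Trim13 and Trim47 passed, whereas Trim21, Trim30a, Trim30d and Trim36 missed with adjusted p between 0.0504 and 0.0538 at changes of 1.47 to 1.71. With normexp background correction the changes of Trim30a, Trim30d and Trim36 were smaller, at 0.79, 0.63 and 1.04, and Trim30d did not pass (adjusted p = 0.0738). Without the filter on dim probes, which raised the number of features tested to 48078, none of the 6 passed, with adjusted p between 0.130 and 0.159. No feature on the array passed under that setting.

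Same-numbered samples deviated together, so the slide was also fitted as a replicate block. The 6 genes then kept their calls at an adjusted p of 0.0337. Trim56, Trim65 and Isg15, described below, had this same value at changes of quite different size, so it does not grade single genes. With slide and group both fitted on so few arrays, little was left to estimate the spread of each gene. A pass with the block on the scanner arrays is thus weak evidence for a single gene, here and below. The block raised the TRIM counts to 8 higher and 5 lower, where 13.0% and 16.8% of all features passed. In the table deposited by the authors, 8 TRIM genes passed as higher and 9 as lower, against 17.0% and 16.4% of all features, and with the block 9 and 11, against 23.5% and 26.3%. These counts include Trim16 as higher and, in the table with the block, Trim58 as lower, which each entered the test through 1 group. The members added by these fits changed by less than the 6 genes above, and are described next.

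Trim56, an interferon-inducible ligase known to act on the DNA-sensing adaptor STING, read 1.04 and 1.26 in control and 1.98 and 2.22 with AEPS. The groups did not overlap, and the change was 0.94 ± 0.17 (SE; adjusted p = 0.0587), which just missed the threshold. It passed with the block (adjusted p = 0.0337) and in the authors' deposited table, where it rose by 0.82 ± 0.08 (adjusted p = 0.00168). Its promoter window held no ISRE core. Trim39, known to inhibit the anaphase-promoting complex, changed by 0.53 ± 0.14 (adjusted p = 0.0912) and passed with the block (adjusted p = 0.0497) and in the authors' deposited table (0.63 ± 0.10, adjusted p = 0.00642). These values are of its brighter probe. The other tested Trim39 probe changed by 0.20 ± 0.13 (limma adjusted p = 0.333 with every probe as its own unit). Trim16, a RING-less member linked to clearance of damaged lysosomes, was above background on 1 control array and both AEPS arrays. It was thus tested for being bright with AEPS, which bears on its direction, and its values support nothing further. It changed by 0.80 ± 0.25 (adjusted p = 0.127), with an adjusted p of 0.0347 with the block and 0.0459 in the authors' deposited table (1.06 ± 0.30). Trim68 changed by 0.25 ± 0.17 and passed only in the table with the block (adjusted p = 0.0242).

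On the side of lower values, Trim14, a RING-less adaptor of the mitochondrial signalling protein MAVS, read 1.59 and 1.82 in control and 1.0 and 1.08 with AEPS. Its change was -0.66 ± 0.15 (adjusted p = 0.0806), and it passed with the block (adjusted p = 0.0389) and in the authors' deposited table (-0.71 ± 0.07, adjusted p = 0.00151). These values are of a probe annotated to no RefSeq gene. The other Trim14 probe, annotated to its RefSeq transcript, changed by 0.01. Trim8, which modulates cytokine and NF-kB signalling, read 4.32 and 4.54 in control and 3.77 and 3.96 with AEPS, a change of -0.56 ± 0.16 (adjusted p = 0.112). It also passed with the block (adjusted p = 0.0382) and in the authors' deposited table (-0.53 ± 0.06, adjusted p = 0.00287). Trim30c, which lies beside Trim30a, changed by -0.50 ± 0.15 (adjusted p = 0.114) and passed with the block (adjusted p = 0.0485), while the table gave -0.34 ± 0.22 (adjusted p = 0.288, and 0.0206 with the block). The only Trim30c probe is annotated to no RefSeq gene. Trim3, Trim11, Trim41, Trim59 and Trim62 passed as lower in the authors' deposited table, with changes of -0.58 to -0.29 and adjusted p between 0.0134 and 0.0398. On the scanner arrays these genes changed by -0.94 to -0.34 and did not pass with or without the block, while Trim41 passed with a variance trend in the fit (adjusted p = 0.0358). Trim3 is an NHL-domain ligase best known from neurons, and Trim59 is a membrane-anchored ligase.

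For Trim65, a ligase of the RNA sensor MDA5, the 2 probes gave different sizes in 1 direction. The brighter probe read -1.58 and -2.72 in control and -2.91 and -3.91 with AEPS, so the slides differed about as much as the groups. Its change was -1.26 ± 0.55 (adjusted p = 0.209), -1.34 on slide 1 and -1.19 on slide 2, and it passed with the block (adjusted p = 0.0337) and in the authors' deposited table (-1.15 ± 0.27, adjusted p = 0.0254). The second probe, 1735 bases away by probe start, read -2.03 and -2.14 in control and -4.26 and -4.53 with AEPS. With every probe as its own unit it fell by 2.31 ± 0.16 (SE; adjusted p = 0.0176).

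Trim34a, a member of the chromosome 7 cluster, had the widest gap between probes. Its brighter probe, at chr7:111396137-111396196 in build mm9, read -3.05 and -4.09 in control and -3.01 and -3.78 with AEPS, a change of 0.18 ± 0.48 (adjusted p = 0.817). The other probe, at chr7:111410513-111410572, read -4.44 and -4.51 in control and -2.78 and -2.71 with AEPS. It was above background on 1 control array and both AEPS arrays, so it was tested through the AEPS group, and 1 of its control values is not well above background. The difference between its group values was 1.73 ± 0.13 (SE; adjusted p = 0.0191 with every probe as its own unit). The probes are annotated to the same RefSeq transcript and lie 14376 bases apart, and their values differed.

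Trim25, the ligase best known for activating the RNA sensor RIG-I, was high on every array and read 5.89 and 5.99 in control and 5.85 and 5.98 with AEPS on its brighter probe. The change was -0.03 ± 0.14 (adjusted p = 0.907). Its second probe, 6565 bases away by probe start, read 5.41 and 5.61 in control and 5.98 and 6.15 with AEPS, a change of 0.56 ± 0.16 (adjusted p = 0.0976). The second probe is annotated to the RefSeq transcript of Trim25, and the first to no RefSeq gene. Of the 12 tested genes with 2 tested probes, Trim59, Trim13, Trim3 and Trim35 had probes within 0.2 of each other. Trim14 was among those that disagreed, with -0.66 on 1 probe and 0.01 on the other.

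**Figure D3:**
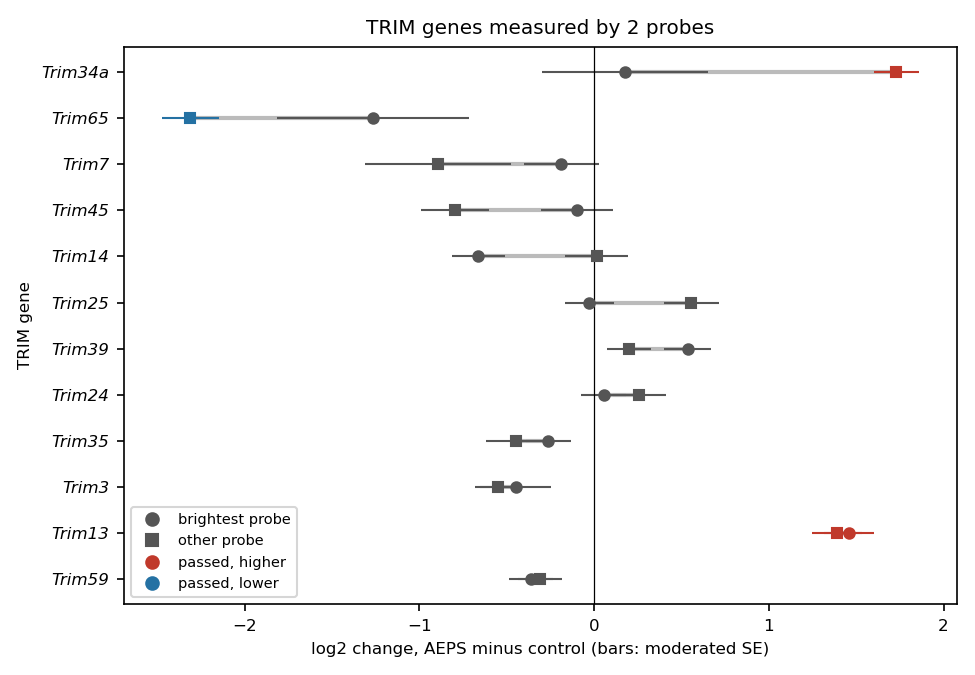
The log2 change, AEPS minus control, of both tested probes of 12 TRIM genes (circle, brightest probe; square, other probe; bars, moderated SE from limma; red and blue, adjusted p under 0.05 as higher and lower with each probe tested as its own unit). The probes of Trim34a lie furthest apart, at 0.18 and 1.73, while those of Trim13 lie at 1.39 and 1.46.

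Among the nuclear members with a PHD finger and bromodomain, Trim28, the KAP1 corepressor that silences retroelements, changed by -0.09 ± 0.14. Trim24, a coregulator of nuclear receptors, changed by 0.05 ± 0.13, and Trim33, which binds SMAD proteins, by 0.26 ± 0.24. None of the 3 passed, and their adjusted p ran from 0.499 to 0.797. Trim66 of the same class was above background on no array. In the NHL class Trim32 changed by 0.22 ± 0.13. Trim71, known as an RNA-binding protein of stem cells, read -3.71 and -4.07 in control and -3.97 and -1.96 with AEPS, so its change of 0.92 ± 0.73 came from slide 2. Trim37, known from centriole control, changed by 0.24 ± 0.13, Trim45 by -0.10 ± 0.21 and the RING-less Trim44 by 0.13 ± 0.14. The other tested Trim45 probe changed by -0.80 ± 0.19 (limma adjusted p = 0.0781 with every probe as its own unit).

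Of the 31 members whose C-terminal part is a SPRY domain alone, 21 were tested, 3 rose and 1 fell, against 4.17% and 2.94% of all features. Trim27, a nuclear and cytoplasmic ligase with SUMO ligase activity, changed by 0.06 ± 0.14, and Trim26, known to act on the transcription factor IRF3, by -0.10 ± 0.15. Trim35 changed by -0.26 ± 0.13, Trim7 by -0.19 ± 0.22, Trim17 by 0.07 ± 0.42 and Trim43c by -0.17 ± 0.18. The other tested Trim7 probe, which entered the test through control, changed by -0.90 ± 0.42 (limma adjusted p = 0.218 with every probe as its own unit). Trim38, which restrains TAB2-dependent signalling, and Trim58, known from erythroid cells, were above background on both control arrays and on no AEPS array. They were thus tested for being bright in control, which bears on their direction. Their observed levels with AEPS were 1.52-fold lower for Trim38 (adjusted p = 0.141) and 1.67-fold lower for Trim58 (adjusted p = 0.0939), and neither passed. In the authors' deposited table with the block the adjusted p of Trim58 was 0.0199, which is no further support, since its inclusion rests on control. Trim9 and Trim46, neuronal and microtubule-bound relatives of Trim36 in the COS-FN3 class, changed by -0.35 ± 0.28 and -0.11 ± 0.15.

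The direction of small changes depended on the scaling. Scaling to the spike-in probes raised the median over all features from -0.19 to 0.45, and 16 of the 21 negative TRIM values became positive, none of them passing. With it 9 TRIM genes passed as higher and none as lower, where 17.7% of all features passed as higher and 1.31% as lower, and Trim47 stood at -1.02 (adjusted p = 0.0521). The 9 include Trim16, which entered the test through the AEPS group, so its inclusion bears on its direction. Quantile normalization gave 2 higher and 2 lower, against 6.42% and 4.79% of all features. Normexp background correction gave 5 higher and 2 lower, against 7.59% and 7.53%. A variance trend in the limma fit gave 6 higher and 4 lower, against 9.63% and 8.95%. The 5 rises stayed positive and Trim47 negative in all 17 alternatives.

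On chromosome 7 the probes of 7 TRIM genes lay within 304.86 kb in build mm9, from Trim6 to Trim30e-ps1 (chr7:111376674-111681534), and 4 of them were tested. Trim30a and Trim30d rose, the probes of Trim34a stood at 0.18 and 1.73, and Trim30c, whose probe lies between those of Trim34a and Trim30a, read -3.35 and -3.14 in control and -3.78 and -3.72 with AEPS. Trim6, Trim12a and Trim30e-ps1 were not above background on any array. Trim21 lies outside this span on the same chromosome. The probes of different TRIM genes shared at most 61.8% of their bases in the 4063 pairs aligned. Cross-hybridisation was not measured.

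Of all features 4.17% rose and 2.94% fell. Among the 7 genes with an ISRE core, 5 were tested, 3 rose and none fell, and the changes ran from -0.10 for Trim26 to 1.49 for Trim21. Among the 40 with a window and no core, 23 were tested, 1 rose and 1 fell, which is near the share over all features, and the median was -0.09. Trim36, which rose, is in neither group because its chromosome was left out. The count is small. Of the other genes with the core, Trim26 and the brighter probe of Trim34a did not pass, and Trim2 and Trim12a were not tested. A link between the core and the changes was not tested. The GAS motif TTCNNNGAA stood in 6 of the 47 genes, against 9.55% of genes in the table, and the NF-kB consensus in none, against 5.14%. The absence of a match says only that these letters are not in the window.

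**Figure D4:**
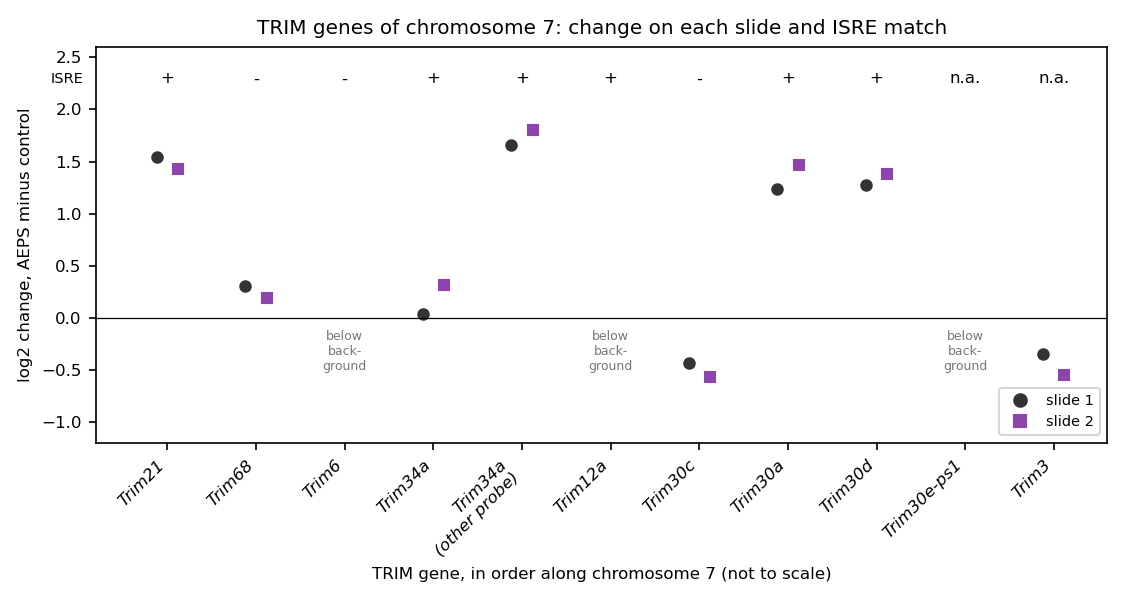
The log2 change, AEPS minus control, on slide 1 (circles) and slide 2 (squares) of the TRIM genes of chromosome 7 in their order along it, with a plus for an ISRE core in the promoter window, a minus for none and n.a. where no window was found. Trim21, Trim30a, Trim30d and the second probe of Trim34a lie between 1.23 and 1.81 on both slides, whereas Trim68, Trim30c, Trim3 and the brighter Trim34a probe lie between -0.57 and 0.32.

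Some probes of TRIM genes carry older names on the array and fell outside the naming rule. Trim12c, listed under a clone name and a neighbour of Trim12a, read -3.77 and -3.65 in control and -2.46 and -2.37 with AEPS and rose by 1.30 ± 0.14 (SE; adjusted p = 0.0293). Its RefSeq window holds the ISRE core with a flank almost identical to that of Trim12a, in chr7:104353350-104353418 on the minus strand, with the match ending 19 bases before the start.
Trim12c: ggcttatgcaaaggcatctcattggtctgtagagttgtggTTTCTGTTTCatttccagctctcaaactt
Another 4 probes were named only by an Ensembl identifier, with a TRIM gene in their description, and were tested. The probe described as Trim56 rose by 0.99 ± 0.13 (SE; adjusted p = 0.0371), and the one described as Trim47 fell by 1.32 ± 0.19 (SE; adjusted p = 0.0433). The one described as Trim30-like rose by 1.31 ± 0.17 (SE; adjusted p = 0.0378). The one described as Trim34-1 was above background on the AEPS arrays alone and was at least 2.65-fold higher there. The limma test of its observed difference did not pass (adjusted p = 0.0509). This probe was tested for being bright with AEPS, which bears on its direction, and its values support nothing further. Trim30b and Trim80, under older names, were not tested because they did not reach background in a whole group.

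The lists read next were chosen by function, with earlier results of these data known. Genes that work with TRIM ligases, and 11 TRIM proteins under other names, make up these 4 lists and are together called partner genes. Of 83 such genes on the array, 76 were tested, 12 rose and none fell, with a median change of 0.17 against -0.19 over all features, where 4.17% rose and 2.94% fell. Among 27 ubiquitin and ISG15 conjugation genes, Isg15, the ubiquitin-like modifier, rose by 4.36 ± 0.16 (adjusted p = 0.00896). Its protease Usp18 rose by 1.44 ± 0.14 (adjusted p = 0.026), and Ube2w, a conjugating enzyme that modifies N termini, by 1.08 ± 0.14 (adjusted p = 0.0368). The other 24, including the E2 enzymes Ube2d3 (0.67 ± 0.14) and Ube2n (0.69 ± 0.14) and the ISG15 enzymes Uba7 (-0.16 ± 0.15) and Ube2l6 (-0.75 ± 0.14), did not pass.

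Among 29 sensors and signalling proteins that TRIM ligases modify, 8 rose, against 4.17% of all features. The RNA sensors Ifih1, which encodes MDA5, and Ddx58, which encodes RIG-I, rose by 3.68 ± 0.15 and 1.25 ± 0.14. The sensors Nod2, Nlrp3 and Zbp1 rose by 3.16 ± 0.15, 2.76 ± 0.16 and 1.31 ± 0.15, and the kinases Ikbke and Tbk1 by 2.03 ± 0.16 and 1.32 ± 0.14. Tab2, the TRIM30a target, rose by 1.40 ± 0.13, and the adjusted p of these 8 ran from 0.00896 to 0.0323. Mavs (-0.48 ± 0.13) and Traf6 (-0.12 ± 0.15) did not pass. Of 16 chromatin partners of TRIM28 and TRIM24, Morc3 alone rose, by 0.98 ± 0.14 (adjusted p = 0.0418), a share near that over all features. Of 11 TRIM proteins under other names, Pml (-0.17 ± 0.13), Mefv (0.40 ± 0.15), Mid1 (-0.66 ± 0.27) and Fsd1l (-0.55 ± 0.20) were tested and none passed. Leaving out 1 array left 1 array in its group, and most of the 12 rises were then lost, as were most calls over all features.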

How the data were processed

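The scanner values are spot intensity values (processed signal, mean signal, background) that the authors deposited from Agilent Feature Extraction 10.7.1.1, per the file headers. The authors' deposited value table holds log2-like values, quantile normalized by their form, with a median of 4.71 per column and an offset not given in the sources used here. Its replicate 1 and 2 columns ranked probes as the scanner files of replicates 1 and 3 did (Spearman at least 0.9999), and its replicate 3 columns matched none.

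Outlier-flagged spots were set to missing and spots of a probe averaged. Processed signals were divided by the array's 75th percentile (401 and 287 in control, 575 and 488 with AEPS) and taken to log2. Groups were compared with limma 3.58.1 (lmFit, eBayes) in R 4.3.3, after a check on simulated data. The number of arrays limits the precision. A bound sets the bright group's mean against, per dim array, the higher of the probe's own signal and the lowest signal well above background. Where the probe's own signal was the higher on each dim array, the bound equals the observed difference. This holds for Trim38, Trim58 and Col3a1, which are given as observed differences. In the table, deviations of same-numbered samples correlated at 0.55, 0.35 and 0.39, other pairs at -0.48 to 0.23, and the arrays of a slide at 0.59, so the numbers were taken to pair samples and the slide served as block. Probe coordinates are in build mm9, per the file headers, and promoter windows in GRCm38.p6. The 2 were not mixed.

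Alternatives were other scalings, background correction, filters, probe summaries, variance models, the table and leaving out each array. Genes named with values are those that passed in any of the main fits, those above background in 1 group, the brightest that did not pass and a set of well-studied members. The members, lists, domain classes, motifs and naming rule were chosen with earlier results of these data known. Genes named beyond the rule, among them Trim7, Trim9, Trim17, Trim43c, Trim45, Trim46 and Trim71, were chosen after their values were seen.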

Additional observations from a re-analysis of the deposited data

How the results depend on the processing

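With 2 arrays per group the counts of calls moved with most settings. The TRIM genes higher and lower (5 and 1) became 2 and 2 with quantile normalization, 9 and 0 with spike-in scaling, 5 and 2 with normexp, and 6 and 2 with the probe as the unit. They were 8 and 5 with the replicate block, 8 and 9 in the authors' table, 9 and 11 there with a replicate block, 2 and 2 there without replicate 3 (an alternative chosen after seeing the data), and 6 and 4 with eBayes with trend. Trim16 is among those higher with spike-in scaling, with the block and in the table with and without it. Trim34a is so with the probe as the unit, on its second probe. Both entered these tests through the AEPS group. Trim58, lower in the table with the block, entered through control. Over all features the shares higher and lower, 4.17% and 2.94%, were 6.42% and 4.79% with quantile normalization, 17.7% and 1.31% with spike-in scaling, 7.59% and 7.53% with normexp, 5.40% and 3.82% with the probe as the unit, 13.0% and 16.8% with the replicate block, 17.0% and 16.4% in the table, 23.5% and 26.3% there with a replicate block, 6.02% and 4.30% there without replicate 3, and 9.63% and 8.95% with eBayes with trend. Without the filter on dim probes 0 TRIM genes and 0 partner genes passed in limma, with 11 TRIM genes at an unadjusted p under 0.05. None of all 48078 features tested then passed. Leaving out 1 array left 1 array in its group, and most calls were then lost among the TRIM genes and over all features. The partner genes higher and lower (12 and 0) became 18 and 5 with quantile normalization, 30 and 0 with spike-in scaling, 21 and 1 with normexp, 23 and 7 with eBayes with trend, 27 and 8 with the replicate block, 30 and 13 in the table, 38 and 15 there with a replicate block, and 18 and 3 there without replicate 3. Their count lower was 1 with the stricter filter, the mean of probes and the probe as the unit. Leaving out 1 array lost most of their calls as higher. The cause of these moves was not tested. TRIM genes above background numbered 36, 47, 53 and 39 under other detection rules, against 39.

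Of 660 values of TRIM genes under the 17 alternatives, 41 changed sign, none of them passing before or after. With spike-in scaling, which shifted the median of all features by 0.64, they were Trim11 0.30, Trim25 0.61, Trim26 0.54, Trim28 0.55, Trim3 0.19, Trim30c 0.13, Trim35 0.37, Trim38 0.029, Trim41 0.21, Trim43c 0.47, Trim45 0.54, Trim46 0.52, Trim59 0.28, Trim7 0.45, Trim8 0.076 and Trim9 0.29. With normexp they were Trim16 -0.061, Trim17 -0.30, Trim25 0.11, Trim28 0.043, Trim33 -0.18 and Trim34a -0.21. Trim25 was 0.05 in the table with and without the block, 0.025 there without replicate 3, 0.028 with quantile normalization and 0.26 as the mean of its probes, and Trim46 was 0.0067 in the table with and without the block. Leaving out 1 array changed the sign of some of the values of 8 genes, whose ranges were -0.43 to 0.057 for Trim7, -0.39 to 0.54 for Trim17, -0.093 to 0.038 for Trim25, -0.017 to 0.15 for Trim27, -0.35 to 0.70 for Trim34a, -0.28 to 0.085 for Trim45, -0.23 to 0.0062 for Trim46 and -0.078 to 1.92 for Trim71.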
